A study of Mus musculus with 8 samples.

Results

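The genes described here are the semaphorins, a family of guidance ligands, and their receptors, the plexins and neuropilins, in livers of mice that lost the actin capping protein subunit Capzb in hepatocytes. They were taken by symbol: every Sema3 to Sema7 gene with a letter suffix, every symbol that begins with Plxna, Plxnb, Plxnc or Plxnd and a digit, and Nrp1 and Nrp2. The rule found 32 of the 24421 symbols counted. Of these, 20 are ligands, 11 are receptors or co-receptors, and 1 is Plxna4os1, a transcript on the strand opposite to Plxna4 whose symbol begins like a plexin. Poly(A) RNA was sequenced from perfused livers of C57BL/6N mice aged 8 to 10 weeks, 4 libraries for each of 2 groups. The CAPZ_KO group carried Albumin-CreERT2 and Capzb-fl/fl, with tamoxifen begun at 4 to 6 weeks of age. The albumin promoter drives the Cre in hepatocytes, so other liver cells keep the gene. The WT group holds 2 kinds of control, Capzb-fl/fl mice given tamoxifen and Albumin-CreERT2;Capzb-fl/fl mice not given it. Both groups therefore carry floxed Capzb. Which control each library is was not given, so exposure to tamoxifen together with Cre cannot be told apart from the deletion. The labels do not state that each library is a separate animal, and p-values measure the spread between these libraries.

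Semaphorins are secreted (class 3) or held in the membrane (classes 4 to 7). Membrane semaphorins bind plexins directly, while most class 3 ligands need a neuropilin, which binds the ligand and pairs with a plexin that carries the signal. The inner part of a plexin acts on small GTPases of the Ras and Rap families, binds GTPase regulators, and through kinases and MICAL enzymes changes actin filaments and adhesion. In liver, neuropilins are best known on sinusoidal endothelial cells, where they also bind VEGF, and B-class plexins on epithelial cells.

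Levels are given as CPM, counts relative to the TMM-adjusted library size. TMM is a scaling that assumes most genes do not change. The libraries held 12060350 to 18916315 counts, and the TMM factors lay between 0.774 and 0.847 for WT and between 1.18 and 1.33 for CAPZ_KO. Capzb, at 4:139192899-139291818, stood at 139.6, 109.4, 117.7 and 113.8 CPM in WT 1 to 4 and at 69.4, 79.6, 64.5 and 76.4 in CAPZ_KO 1 to 4. The groups did not overlap. Capzb fell by 0.73 ± 0.125 (SE) on the log2 scale (edgeR adjusted p = 0.00134), to 60.3% of WT, and a permutation of the libraries, exact and two-sided, on log2(CPM + 1), gave p = 0.0286, the smallest that 70 arrangements of 4 against 4 can give two-sided. With library sizes alone the Capzb difference was -0.10 (adjusted p = 0.442). Hepatocyte markers summed to 166290 to 214486 CPM in WT and to 38599 to 58895 in CAPZ_KO, and 7 of 8 were lower, beside 19.0% of all genes tested. WT 4 and CAPZ_KO 4 were female by their Xist and Y-linked counts and the others male.

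Among the members, rises outnumbered falls, on the ligand side and among the plexins, while both neuropilins fell. Of 15 ligands tested, 9 were higher and 3 lower in CAPZ_KO, with a median log2 fold change of 0.67. With any single library left out, 6 to 8 ligands were higher and 2 to 3 lower. Of 11 receptors and co-receptors, 4 were higher and 2 lower, with a median of 0.25. Over all 12985 genes tested, 22.4% were called higher, 19.0% lower and 41.4% in either direction, and the median was -0.0029. The call is an edgeR adjusted p under 0.05. Every CAPZ_KO library lay above every WT library for 8 ligands and 5 receptors, and below for 3 ligands and 1 receptor, beside 22.1% and 18.2% of all genes. The difference between ligands and receptors was not tested. Of the 27 members tested, 20 reached the filter's level in all 4 WT libraries. Plxnb3 reached it in 0 WT libraries and Sema3b and Plxna3 in 1, each with all 4 CAPZ_KO libraries, so the counts over tested members hold genes that passed mainly or only through CAPZ_KO. Sema5a, Sema6c and Plxna4os1 reached it in 3 WT libraries and Sema5b in 2 of each group.

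**Figure D1:**
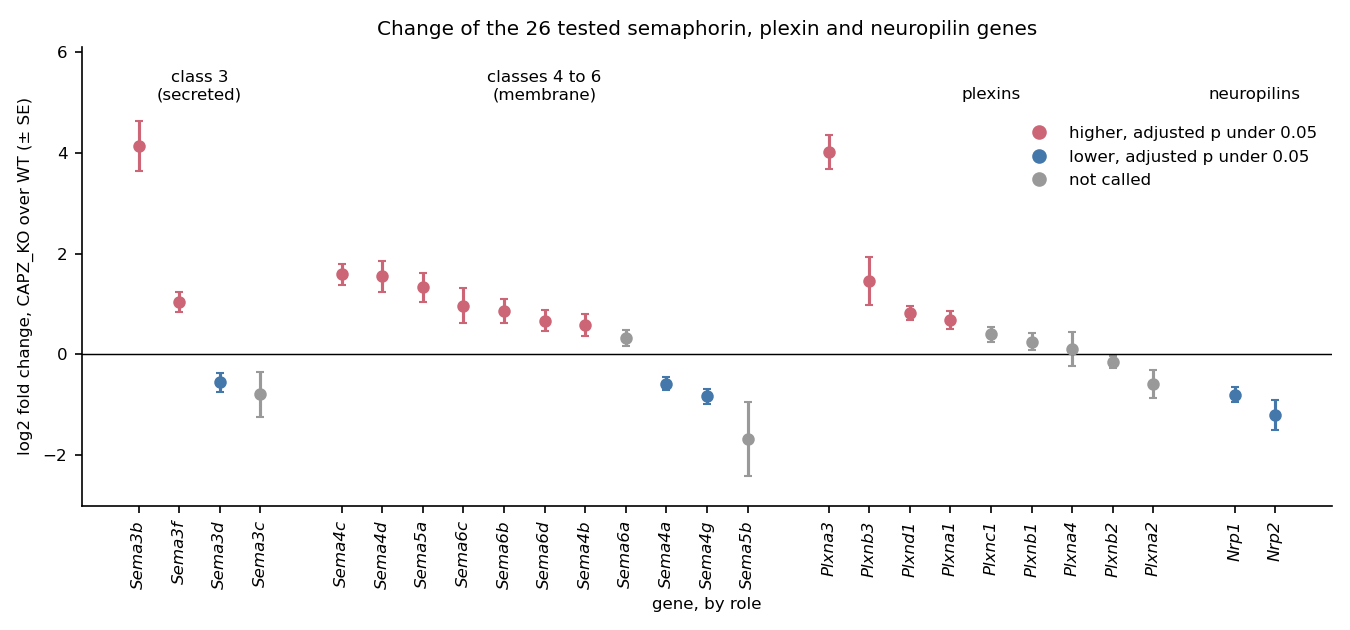
Log2 fold change of CAPZ_KO over WT (vertical axis, TMM scaling) for the 26 ligands and receptors tested, by role, with bars of 1 SE (4 libraries a group). Sema3b at 4.14 and Plxna3 at 4.01 stand above the rest, and both neuropilins lie below 0. With library sizes alone every value moves up, and Sema3d, Sema4a, Plxna2 and Plxnb2 change sign.

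The secreted class 3 ligands did not move in 1 direction: of 4 tested, 2 rose and 1 fell (median 0.24). Over all genes tested, 22.4% were called higher and 19.0% lower. Sema3b, a ligand of neuropilins, had the largest log2 fold change of the 26. It stood at 0.107, 0.263, 0.0710 and 0.843 CPM in WT 1 to 4 and at 5.95, 6.38, 6.71 and 5.68 in CAPZ_KO 1 to 4. It was near the limit of counting in WT, with 19 counts in all against 482, and above every WT library in each CAPZ_KO library. Mean levels were 0.321 ± 0.358 and 6.18 ± 0.459 CPM (SD, n = 4), a ratio of 19.2. The log2 fold change was 4.14 ± 0.492 (edgeR adjusted p = 0.000175), and 5.25 without WT 4, which held the highest WT level.

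Sema3f, which signals mainly through Nrp2 and A-class plexins, stood at 6.22, 5.99, 5.96 and 7.33 CPM in WT and at 9.33, 13.4, 17.2 and 12.4 in CAPZ_KO. The groups did not overlap, and CAPZ_KO 3 was the highest. Sema3f rose by 1.03 ± 0.198 on the log2 scale (edgeR adjusted p = 0.00241). Sema3d, known for guiding vessels and nerves, stood at 4.61, 5.20, 5.61 and 5.06 CPM in WT and at 4.15, 3.19, 2.96 and 3.68 in CAPZ_KO. Every CAPZ_KO library lay below every WT library, by a small margin for CAPZ_KO 1. Sema3d fell by 0.55 ± 0.189 (adjusted p = 0.0394). The call was lost when WT 2, WT 3, WT 4, CAPZ_KO 2, CAPZ_KO 3 or CAPZ_KO 4 was left out, with adjusted p up to 0.0894. It was also lost with the replicate block (0.0754), with no filter on low counts (0.0660) and without the female pair (0.0895). Sema3c was uneven in WT, at 8.15, 2.30, 2.06 and 6.22 CPM, and stood at 1.98, 2.19, 3.63 and 2.91 in CAPZ_KO. Its difference of -0.79 ± 0.444 did not pass the test (adjusted p = 0.179).

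Sema3b and Sema3f are neighbours on the minus strand of chromosome 9 in GRCm38, at 9:107597674-107609229 and 9:107681500-107710475, 72.3 kb apart. Genes between and around them went both ways. Within 100 kb of Sema3b, 3 tested genes were higher (Rassf1, Gnai2 and Sema3f), 4 were lower (Tusc2, Hyal1, Slc38a3 and Gnat1) and 6 were not called. Over all genes tested, 22.4% were called higher and 19.0% lower. How often other windows hold such a mix was not tested. The neighbours were named after their values were seen. Gnai2, which lies 4.90 kb from Sema3b, had a log2 fold change of 0.97 and Gnat1, 1.79 kb from Sema3f, one of -1.59.

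Of 11 membrane semaphorins tested, 7 were higher and 2 lower (median 0.67), beside 22.4% higher and 19.0% lower over all genes tested. The 2 that fell, Sema4g and Sema4a, had the highest levels per exon length. Sema4c, a ligand of Plxnb2, stood at 2.79, 3.29, 3.97 and 4.28 CPM in WT and at 11.2, 12.7, 8.35 and 11.2 in CAPZ_KO. The lowest CAPZ_KO library was well above the highest WT library. Sema4c rose by 1.59 ± 0.202 on the log2 scale (edgeR adjusted p = 0.000245). Its exons overlap those of D430040D24Rik on the other strand, and because the strand setting of the counting is unknown here, the pair may share reads.

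Sema4d, the Plxnb1 ligand that also binds Cd72 on immune cells, stood at 2.57, 2.57, 1.21 and 3.37 CPM in WT and at 9.42, 7.67, 5.62 and 5.73 in CAPZ_KO. No libraries overlapped, and Sema4d rose by 1.55 ± 0.310 (edgeR adjusted p = 0.00305). Sema5a, a semaphorin with thrombospondin repeats that binds Plxnb3, was low, at 1.18, 0.987, 0.710 and 1.62 CPM in WT and 2.84, 3.04, 3.14 and 2.40 in CAPZ_KO. It rose by 1.34 ± 0.287 (adjusted p = 0.00438), again without overlap. Sema5b, the other class 5 gene, ranged from 0.213 to 3.63 CPM in WT and from 0.270 to 0.716 in CAPZ_KO. Its difference of -1.67 ± 0.736 was not called (adjusted p = 0.094) but passed without WT 3 (-2.04, adjusted p = 0.0289).

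The class 6 ligands, which bind A-class plexins, were mostly higher. Sema6b, a ligand of Plxna4, stood at 4.40, 3.62, 5.11 and 6.81 CPM in WT and at 7.75, 9.37, 7.38 and 11.7 in CAPZ_KO. WT 4 and CAPZ_KO 3 came close without overlapping, and Sema6b rose by 0.86 ± 0.236 (edgeR adjusted p = 0.0153). Sema6d, a Plxna1 ligand, stood at 12.8, 19.7, 18.2 and 23.1 CPM in WT and at 23.9, 29.1, 25.3 and 39.2 in CAPZ_KO. It rose by 0.67 ± 0.209 (adjusted p = 0.0271), with adjacent values in WT 4 and CAPZ_KO 1. Without WT 1, WT 3, CAPZ_KO 2 or CAPZ_KO 4 the Sema6d call was lost, with adjusted p up to 0.0756. Sema6c stood at 1.29, 0.987, 0.568 and 0.713 CPM in WT and at 2.16, 2.09, 1.27 and 1.28 in CAPZ_KO. The groups overlapped, and the rise of 0.97 ± 0.345 (adjusted p = 0.0455) was lost without any 1 library other than WT 1 and CAPZ_KO 4, with adjusted p up to 0.130, without the female pair (0.0830) and with no filter on low counts (0.0603). Sema6a, a ligand of Plxna2 and Plxna4, stood at 7.72, 7.70, 8.66 and 7.65 CPM in WT and at 10.4, 10.1, 11.5 and 7.82 in CAPZ_KO, a difference of 0.33 ± 0.159 that was not called (adjusted p = 0.127).

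Sema4b stood at 9.22, 5.26, 8.59 and 11.4 CPM in WT and between 12.3 and 13.5 in the 4 CAPZ_KO libraries. WT libraries were spread more widely than CAPZ_KO libraries. The rise of 0.59 ± 0.211 (edgeR adjusted p = 0.0472) was lost when any library other than WT 4 was left out, with adjusted p up to 0.115, and with DESeq2 size factors (0.0515). Sema4g, a class 4 transmembrane ligand known to bind Plxnb2, at 19:44989101-45003397, stood at 224, 305, 333 and 275 CPM in WT and at 143, 170.2, 155 and 171 in CAPZ_KO. Every CAPZ_KO library lay below WT 1, the lowest control. Sema4g fell by 0.83 ± 0.150 (adjusted p = 0.00174). Sema4a, which acts on immune and endothelial cells, stood at 91.2, 101, 89.5 and 93.1 CPM in WT and at 59.4, 76.5, 54.4 and 61.3 in CAPZ_KO. It fell by 0.58 ± 0.129 (adjusted p = 0.00538), with no overlap.

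**Figure D2:**
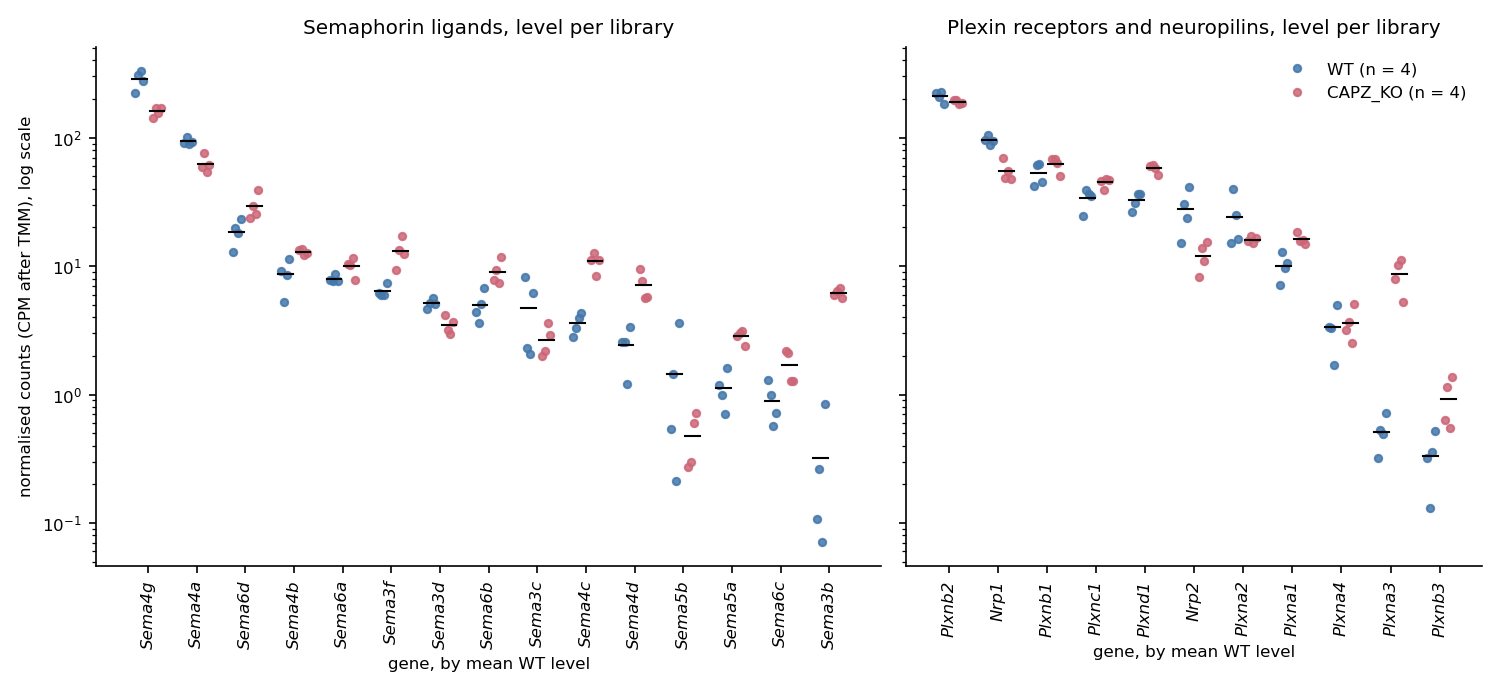
CPM after TMM (log axis) of each of the 15 ligands and 11 receptors tested in every library, with genes ordered by mean WT level and bars at the group mean (n = 4). Sema4g and Plxnb2 are the highest of their panels in both groups, and the WT points of Sema3b and Plxna3 lie below 1 CPM while all CAPZ_KO points lie above 5.

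The other 5 ligands had too few counts to be tested. Sema4f had 1 count in all of WT and 26 in all of CAPZ_KO, which after scaling is 17.9 times as many (95% interval 2.95 to 735), and with no filter on low counts its edgeR adjusted p was 0.00754. Sema7a, which is anchored by a lipid and binds Plxnc1, had 6 and 24 counts (ratio 2.76, 1.10 to 8.25). Sema3g had 2 and 12 counts (4.14, 0.921 to 38.1). Sema3a, the founding repellent of the family, had 12 and 21 (1.21, 0.567 to 2.69). Sema3e, which binds Plxnd1 without a neuropilin, had 13 and 10 (0.530, 0.208 to 1.31). These intervals cover counting error only, not the spread between livers. None of the 5 passed 1 CPM in any library.

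Among the 9 plexins, 4 rose and none fell by the edgeR test, beside 22.4% higher and 19.0% lower over all genes tested. The median was 0.40. Of the 4 that rose, Plxna3 reached the filter's level in 1 WT library and Plxnb3 in 0. The most abundant plexin, Plxnb2, was not among the 4. At an unadjusted p under 0.05, 5 plexins were higher and 0 lower, and DESeq2 and limma-voom each called 4 higher and 0 lower. Plxna3, which pairs with neuropilins as a receptor of class 3 ligands, stood at 0.322, 0.526, 0.497 and 0.713 CPM in WT and at 7.98, 10.3, 11.2 and 5.27 in CAPZ_KO. It was below 1 CPM in every WT library, with 29 counts in all against 671, and above 5 CPM in every CAPZ_KO library. Mean levels were 0.515 ± 0.160 and 8.67 ± 2.64 CPM (SD, n = 4), a ratio of 16.9. The log2 fold change was 4.01 ± 0.330 (edgeR adjusted p = 2.73e-05).

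Plxnb3, a receptor of Sema5a, stood at 0.322, 0.132, 0.355 and 0.519 CPM in WT and at 0.631, 1.15, 0.544 and 1.38 in CAPZ_KO. The groups came close, at 0.519 in WT 4 and 0.544 in CAPZ_KO 3. Plxnb3 rose by 1.46 ± 0.483 (edgeR adjusted p = 0.0340), a call lost without WT 1, WT 2, WT 3, CAPZ_KO 2 or CAPZ_KO 4 (adjusted p up to 0.0893) and without the female pair (0.0545). Plxnd1, the endothelial plexin that binds Sema3e, stood at 26.5, 31.1, 36.5 and 36.3 CPM in WT and at 60.3, 60.7, 58.5 and 51.5 in CAPZ_KO. All CAPZ_KO libraries were well above all WT libraries, and Plxnd1 rose by 0.82 ± 0.133 (adjusted p = 0.000927). Plxna1, a receptor of Sema6d and of class 3 ligands, stood at 7.08, 12.8, 9.58 and 10.5 CPM in WT and at 18.4, 15.6, 15.9 and 14.9 in CAPZ_KO. It rose by 0.69 ± 0.180 (adjusted p = 0.0120) without overlap. Its exons overlap Gm26811 on the other strand, so the caution given for Sema4c holds here too.

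Plxnc1, the receptor of Sema7a, stood at 24.6, 39.2, 36.5 and 35.3 CPM in WT and at 45.9, 39.3, 47.5 and 46.5 in CAPZ_KO. The groups did not overlap, by a narrow gap, and the difference of 0.40 ± 0.154 was not called (edgeR adjusted p = 0.0607). Plxnb1, the Sema4d receptor, stood at 41.9, 61.4, 62.5 and 45.4 CPM in WT and at 68.3, 68.6, 64.0 and 50.2 in CAPZ_KO (0.25 ± 0.167, adjusted p = 0.257). Its exons overlap Gm7628 on the other strand. Plxnb2, the receptor of Sema4c and Sema4g, stood at 223, 206, 227 and 183 CPM in WT and at 195, 197, 183 and 187 in CAPZ_KO (-0.14 ± 0.120, adjusted p = 0.371). Plxna2, a Sema6a receptor, was uneven in WT, at 15.02, 39.9, 25.0 and 16.3 CPM, and even in CAPZ_KO, at 15.6, 17.0, 15 and 16.5. Its difference of -0.59 ± 0.277 was not called (adjusted p = 0.115), and it passed without WT 1 (-0.76, adjusted p = 0.0414). Plxna4 ranged from 1.70 to 4.99 CPM in WT and from 2.54 to 5.06 in CAPZ_KO (0.11 ± 0.334, adjusted p = 0.809), and its exons overlap Plxna4os3. Plxna4os1, which lies within Plxna4 on the other strand and shares no exon with it, ranged from 0.429 to 1.14 CPM in WT and from 1.48 to 2.25 in CAPZ_KO. Its log2 fold change was 0.94 ± 0.323 (adjusted p = 0.0394). The call was lost when any library other than CAPZ_KO 4 was left out (adjusted p up to 0.109). It was also lost with the replicate block (0.0713), with no filter on low counts (0.0545) and without the female pair (0.0530).

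Plxna3 and Plxnb3 lie on the plus strand of the X chromosome at X:74329066-74344689 and X:73757090-73772514, 556.6 kb apart. Of the genes tested within 100 kb of Plxna3, 6 were higher, 0 lower and 8 not called. The largest change among them was 2.35, in the actin crosslinker Flna. Within 100 kb of Plxnb3, 1 was higher (the creatine transporter Slc6a8, 2.20), 1 was lower (Ssr4, -0.53) and 3 were not called. These neighbours were named after their values were seen. Their counts stand beside 22.4% called higher and 19.0% lower over all genes tested.

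Promoters are shown for the 2 called ligands and 2 called receptors with the largest changes, where these have an entry among the RefSeq promoters of GRCm38.p6. Each runs from 250 bases before to 50 after a start site, 5′ to 3′ on the gene's strand. The changes rank Sema3b and Sema4c first among called ligands and Plxna3 and Plxnb3 first among called receptors. Sema3b has no entry, so no window is shown for it. The windows of the 2 Sema4c start sites lie at 1:36558332-36558631 and 1:36557508-36557807 on the minus strand, that of Plxna3 at X:74328816-74329115 and that of Plxnb3 at X:73756853-73757152. Capitals mark matches on either strand to 4 motifs: AP-1 (TGANTCA), TEAD (GGAATG), the CArG box of serum response factor, and the GC box (GGGCGG).
Sema4c, first start: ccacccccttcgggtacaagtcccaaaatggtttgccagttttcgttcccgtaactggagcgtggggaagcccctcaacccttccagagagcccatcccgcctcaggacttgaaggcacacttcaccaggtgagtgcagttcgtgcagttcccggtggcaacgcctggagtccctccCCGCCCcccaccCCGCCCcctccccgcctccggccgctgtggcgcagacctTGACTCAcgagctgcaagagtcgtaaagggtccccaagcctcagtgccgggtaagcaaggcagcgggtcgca
Sema4c, second start: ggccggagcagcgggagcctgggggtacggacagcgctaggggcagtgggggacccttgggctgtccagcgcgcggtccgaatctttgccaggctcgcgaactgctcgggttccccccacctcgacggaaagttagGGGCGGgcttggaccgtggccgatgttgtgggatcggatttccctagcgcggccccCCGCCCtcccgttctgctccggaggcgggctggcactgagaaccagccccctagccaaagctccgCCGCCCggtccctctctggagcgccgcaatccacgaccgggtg
Plxna3: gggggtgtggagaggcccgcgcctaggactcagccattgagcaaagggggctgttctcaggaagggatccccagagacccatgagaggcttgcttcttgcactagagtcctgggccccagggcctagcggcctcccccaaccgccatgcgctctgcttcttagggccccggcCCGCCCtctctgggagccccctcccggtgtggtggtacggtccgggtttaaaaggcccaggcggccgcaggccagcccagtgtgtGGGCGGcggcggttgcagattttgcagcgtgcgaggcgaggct
Plxnb3: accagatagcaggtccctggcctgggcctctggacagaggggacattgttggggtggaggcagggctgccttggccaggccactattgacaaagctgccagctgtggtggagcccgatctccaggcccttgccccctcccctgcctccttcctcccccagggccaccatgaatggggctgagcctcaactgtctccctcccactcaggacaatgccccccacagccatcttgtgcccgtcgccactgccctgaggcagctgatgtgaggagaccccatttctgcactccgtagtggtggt
The first Sema4c window held an AP-1 match from -22 to -16 and GC boxes from -73 to -68 and -61 to -56, counted from the start site. The second held GC boxes from -114 to -109, -58 to -53 and 8 to 13. The Plxna3 window held GC boxes from -78 to -73 and 8 to 13, and that of Plxnb3 none of the 4. Of the 31 ligands and receptors, 26 had 37 entries in all. An AP-1 match stood in 3 of the 26 (Sema4c, Sema4d and Sema6b), a TEAD match in 3 (Sema4a, Plxnd1 and Plxnb1), a CArG box in 1 (Sema4d) and a GC box in 21. Of all 32851 promoters of this length, 7.81% held AP-1, 14.7% TEAD, 1.63% CArG and 35.7% GC box matches, per window and not per gene. A match describes letters and not binding.

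Both neuropilins were lower in CAPZ_KO. Nrp1, the co-receptor of class 3 semaphorins and VEGF, at 8:128358604-128503363, stood at 95.6, 105, 87.1 and 94.5 CPM in WT and at 69.0, 48.5, 54.7 and 47.8 in CAPZ_KO. No libraries overlapped, and Nrp1 fell by 0.80 ± 0.142 on the log2 scale (edgeR adjusted p = 0.00161). Nrp2, the Sema3f co-receptor found on veins and lymphatic vessels, at 1:62703285-62818695, stood at 15.1, 30.2, 23.6 and 41.6 CPM in WT and at 8.16, 13.8, 11.01 and 15.3 in CAPZ_KO. WT 1 was just below CAPZ_KO 4, and the other WT libraries were higher. Nrp2 fell by 1.20 ± 0.300 (adjusted p = 0.00990). With library sizes alone both kept their sign and neither passed (-0.16, adjusted p = 0.406 for Nrp1 and -0.60, adjusted p = 0.100 for Nrp2).

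In bulk liver, fewer cells of a type and less RNA per cell cannot be told apart, so endothelial markers are given beside the neuropilins. Of 8 sinusoidal endothelial markers, 0 were called by edgeR (median -0.08, 1 higher at an unadjusted p under 0.05 and 1 higher by DESeq2), and their sum was 353 to 535.6 CPM in WT and 376.5 to 593.8 in CAPZ_KO. Of 7 pan-endothelial markers, 3 were higher and 0 lower (129.6 to 174.3 against 171.1 to 246.4 CPM), and of 4 lymphatic markers tested 1 was higher, with Ccl21a at 0 in all libraries. Over all genes tested, 22.4% were called higher and 19.0% lower. Per 100 CPM of the sinusoidal markers, Nrp1 was 27.1, 20.2, 18.7 and 17.6 CPM in WT and 18.3, 10.4, 13.0 and 8.05 in CAPZ_KO, where CAPZ_KO 1 overlapped WT 4. Nrp2 was 4.28, 5.82, 5.06 and 7.77 in WT and 2.17, 2.96, 2.62 and 2.57 in CAPZ_KO, with no overlap. Per 100 CPM of the pan-endothelial markers, Plxnd1 was 17.9 to 23.7 in WT and 20.9 to 35.3 in CAPZ_KO.

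Markers of some other liver cell types were also higher in CAPZ_KO. Cholangiocyte markers summed to 42.9 to 79.6 CPM in WT and 368.7 to 1088 in CAPZ_KO, with 4 of 7 higher. Monocyte-derived macrophage markers summed to 39.8 to 63.7 CPM in WT and 224.0 to 280.4 in CAPZ_KO (7 of 8 higher), and those of stellate cells and fibroblasts to 345.1 to 411.9 and 811.4 to 1235 (7 of 8 higher). Of 7 Kupffer cell markers 4 were higher, with overlapping sums. Of the markers of T cells (5 tested), B cells (4), NK cells (4), mesothelium (5) and nerve (1), 0 were called by edgeR, DESeq2 or limma-voom, and 0 had an unadjusted p under 0.05. For neutrophils 1 of 4 and for platelets 1 of 3 markers were higher. The share called higher over all genes tested, 22.4%, stands beside the counts of each of these cell types. The part of these cells in the rises of Sema3b, Sema4c, Sema4d, Plxna3 and the others was not tested.

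Per kilobase of exon (RPKM), which allows levels to be compared between genes, the ligand pool was led by Sema4g and Sema4a and the receptor pool by Plxnb2 and Nrp1 in WT. Sema4g stood at 32.8 ± 5.36 RPKM in WT and 18.5 ± 1.55 in CAPZ_KO (SD, n = 4), and Sema4a at 17.3 ± 0.972 and 11.6 ± 1.76. The next ligand, Sema6d, was at 1.75 ± 0.407 in WT, not separated beyond its spread from Sema4b at 1.53 ± 0.451. Plxnb2 stood at 27.2 ± 2.64 and 24.6 ± 0.860, and Nrp1 at 9.77 ± 0.755 and 5.62 ± 1.00. In CAPZ_KO Plxnd1, at 7.91 ± 0.585, and Plxnb1, at 6.54 ± 0.901, had higher means than Nrp1. Sema3b and Plxna3 reached 1.29 ± 0.0960 and 1.10 ± 0.335 in CAPZ_KO, so that their large ratios led to levels well under those of the leading genes.

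**Figure D3:**
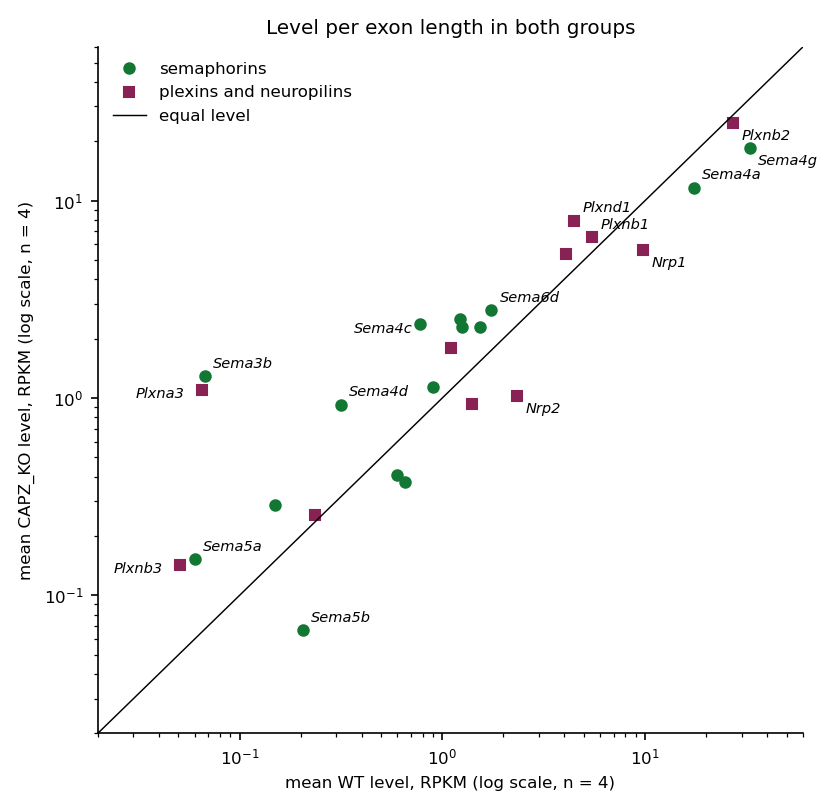
Mean RPKM in WT (horizontal) and CAPZ_KO (vertical) of the 26 tested members on log axes, with a line of equal level (n = 4 a group). The most abundant ligands, Sema4g and Sema4a, lie under the line, and Sema3b and Plxna3 lie farthest above it.

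The direction of the summed levels depended on the scaling. With TMM the ligand sum was 52.0 to 63.8 RPKM in WT and 43.4 to 51.6 in CAPZ_KO, and with library sizes alone it was 40.2 to 51.7 in WT and 56.0 to 61.1 in CAPZ_KO, lower and then higher in CAPZ_KO without overlap. The receptor sum was 52.9 to 59.3 in WT and 52.0 to 58.1 in CAPZ_KO with TMM, which overlap, and 40.9 to 47.7 and 62.5 to 77.2 with library sizes alone, which do not. The receptor sum divided by the ligand sum was 0.943 ± 0.0596 for WT and 1.18 ± 0.131 for CAPZ_KO (SD, n = 4), and each CAPZ_KO library exceeded each WT library. Sema4g made up 54.7 ± 4.62% of the ligand pool in WT and 39.1 ± 1.26% in CAPZ_KO. The share of Sema6d went from 2.90% to 5.87%, that of Sema3f from 2.07% to 5.35% and that of Sema3b from 0.111% to 2.76%. Among receptors, Nrp1 went from 17.4 ± 1.57% to 10.1 ± 1.45% and Plxnd1 from 7.96 ± 1.14% to 14.3 ± 0.540%, while Plxnb2 was 48.5 ± 4.87% and 44.6 ± 1.57%. The shares and the ratio of the sums, unlike the sums, do not depend on the scaling between libraries.

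Ligands and receptors known to bind each other did not always move together. Sema3f rose while its co-receptor Nrp2 fell. Of the A-class plexins, Plxna1 and Plxna3 rose, and Plxna2 and Plxna4 were not called. Sema4g fell and Sema4c rose, and their receptor Plxnb2 was not called. Sema4d and Sema6b rose, while their receptors Plxnb1 and Plxna4 were not called. Sema5a and Plxnb3 both rose, as did Sema6d and Plxna1, but the Plxnb3 and Sema6d calls were lost when certain single libraries were left out. Sema4d and its immune receptor Cd72 both rose, and Sema4a and its receptor Timd2 both fell. Plxnd1 rose while Sema3e was at the limit of counting. Vegfa, which binds both neuropilins, fell, as they did. The pairs were named after their values were seen, and 41.4% of all genes tested were called in either direction.

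**Figure D4:**
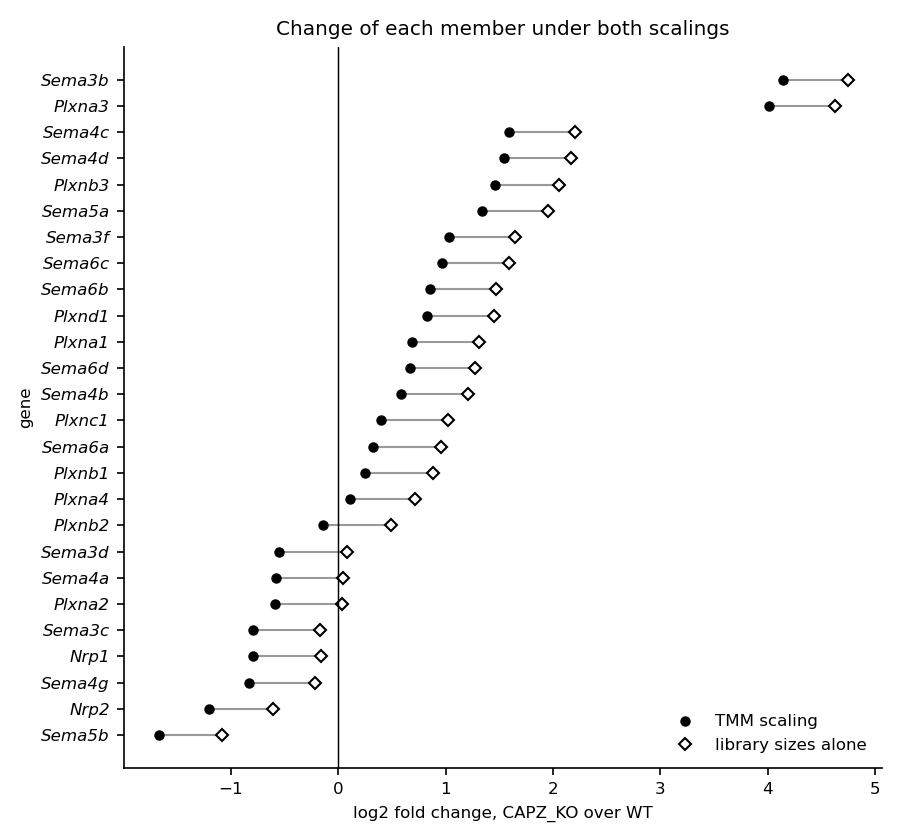
Log2 fold change of the 26 tested members with TMM (filled) and with library sizes alone (open). The members move up together by about the 0.62 of all genes, and Sema3d, Sema4a, Plxna2 and Plxnb2 cross 0 while Nrp1, Nrp2 and Sema4g do not.

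The calls of members that fell depended on the scaling, while those of members that rose did not. With library sizes alone, the median of all genes moved up by 0.62 on the log2 scale, and 91.6% of called genes were higher against 54.1% with TMM. Which scaling is nearer to the true change was not tested. The 9 ligands and 4 receptors called higher with TMM were also called higher with library sizes alone, from Sema4b (1.20) to Sema3b (4.74). Sema4a and Sema3d, lower with TMM, stood at 0.04 and 0.08 with library sizes alone and were not called, Sema4g stood at -0.21 (adjusted p = 0.216), and Plxnb2 was called higher (0.49, edgeR adjusted p = 0.00417). No member was then called lower.

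The rest of the pathway, from lists of receptors, GTPases, regulators and effectors, was called higher more often than lower: 27 of the 58 tested rose and 4 fell, against 22.4% higher and 19.0% lower over all genes tested, the shares beside which the counts of each list below can be read. Among 12 other receptors and co-receptors, 6 were higher and 2 lower (median 0.20). Trem2, which with Tyrobp forms a complex with Plxna1 in myeloid cells, rose by 3.28 (edgeR adjusted p = 0.000443, and 4.04 without WT 4). Trem2 is also among the monocyte-derived macrophage markers above, and Flt4 and Kdr of this list are also among the endothelial markers. The counts of these lists therefore share genes. Cd72, the Sema4d receptor of immune cells, rose by 1.58 (adjusted p = 0.000738). Timd2, a Sema4a receptor, fell by 1.29 (adjusted p = 0.000101), and Met, the hepatocyte growth factor receptor that associates with B-class plexins, fell by 1.10 (adjusted p = 0.000494). Vegfa, the VEGF that binds both neuropilins, went from 89.6 ± 16.4 to 35.6 ± 4.42 CPM (SD, n = 4) and was the only 1 of 4 VEGF ligands called, falling by 1.33 (adjusted p = 0.000179; list median -0.01).

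Of 12 small GTPases, 6 were higher and 0 lower (median 0.43, beside 22.4% higher and 19.0% lower over all genes), the same counts as at an unadjusted p under 0.05 and by DESeq2. Rras, a target of the plexin GAP domain, rose by 1.31 (edgeR adjusted p = 7.05e-05), Rras2 by 0.80, Cdc42 by 0.78 and Rhod, which binds A-class plexins, by 0.95. Among 7 GTPase regulators, 2 were higher and 1 lower (median -0.29). Farp2, an exchange factor bound to Plxna1, fell by 1.14 (adjusted p = 0.000713), Sh3bp1 rose by 1.25 and Farp1 by 0.72, the last lost without CAPZ_KO 3 (adjusted p = 0.0528). Of the 3 MICAL oxidoreductases, which take actin filaments apart by oxidation, Mical1 rose by 1.61 and Mical2 by 1.02 (adjusted p = 0.00100 and 0.00349, list median 1.02). Of 2 collapsin response mediators tested of 5, Dpysl3 rose by 2.84 (adjusted p = 0.00286), from 2.91 ± 0.281 to 20.8 ± 15.3 CPM, with a wide spread in CAPZ_KO.

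Of 13 kinases and adaptors, 8 were higher and 0 lower (median 0.54), while DESeq2 called 9 higher and 1 lower. The PAK, LIM kinase and cofilin series, which controls filament turnover, was among them: Pak1 rose by 2.04 (edgeR adjusted p = 0.000147), Limk1 by 1.63 and Cfl1 by 0.98, and Cfl1 went from 232 ± 35.9 to 459 ± 28.8 CPM. Gipc1, an adaptor that binds the Nrp1 tail, rose by 0.95 (adjusted p = 0.000442) while Nrp1 fell. Of 5 proteases known to cut semaphorins or their receptors, 2 were higher and 0 lower (median 0.33), while DESeq2 also called 1 lower. Adam10 rose by 0.98 and Mmp14, which cuts Sema4d, by 1.10.

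**Figure D5:**
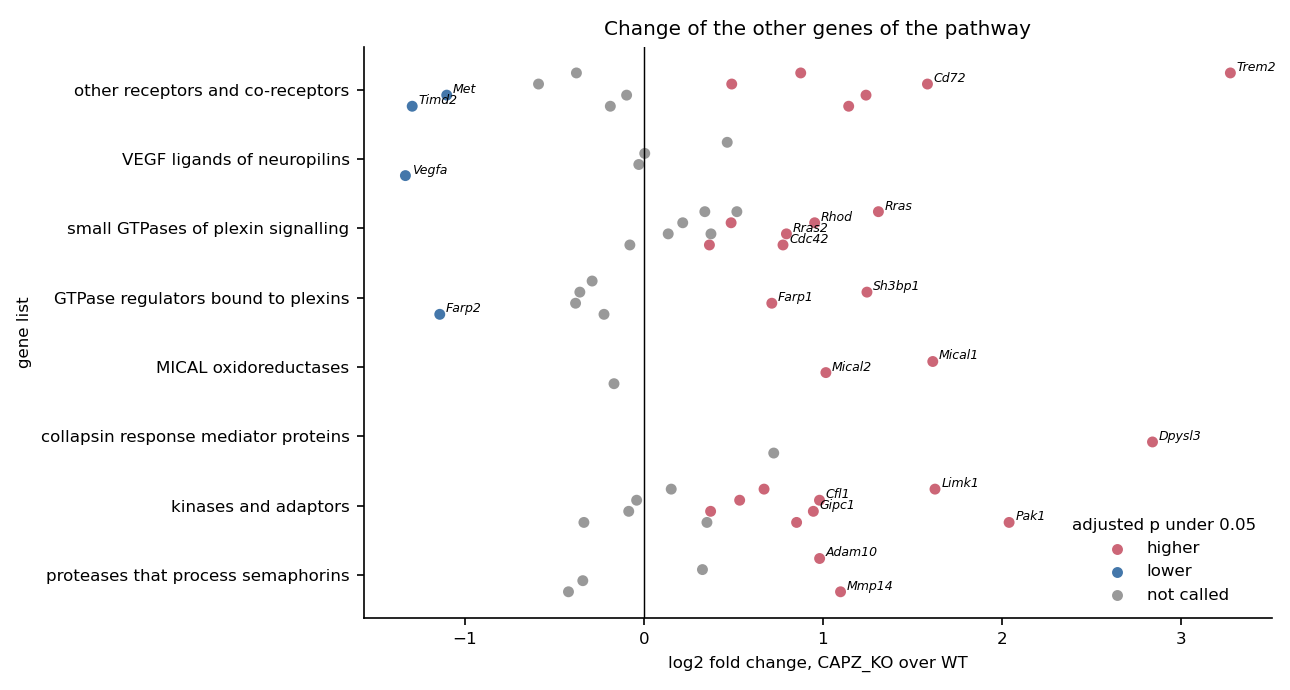
Log2 fold change (TMM scaling) of each tested gene of the 8 other pathway lists, coloured by its call at edgeR adjusted p under 0.05, with 4 libraries a group. Trem2, Dpysl3 and Pak1 are farthest to the right, and Vegfa, Timd2, Farp2 and Met are the 4 called lower.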

How the data were processed

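The authors deposited unscaled read counts for each gene symbol from stranded poly(A) libraries. The submitters' processing notes name the build mm10, featureCounts, STAR 2.5.3a, edgeR and bcl2fastq, as well as R 3.3.1, without roles. Annotation, strand and multiple-match settings were not given in the sources used here.

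Genes passing filterByExpr (minimum count 10, minimum total count 15) were scaled by TMM and tested by edgeR 4.0.16 (quasi-likelihood, robust dispersion, no covariate) over both groups in R 4.3.3. P-values were adjusted by Benjamini-Hochberg over 12985 genes at a threshold of 0.05. The SE is the absolute log2 fold change divided by the square root of F. RPKM divides CPM by the exon length in GENCODE vM21 (GRCm38, which mm10 also names). Alternatives included DESeq2 1.42.0, limma-voom 3.58.1, other filters and scalings, a replicate block, sex as a term, and leaving out libraries. No 2 libraries of a group were duplicates (chi-square divided by its degrees of freedom, 26.4 to 153). The code was tested on simulated data, where it recovered 8 of 50 changes of 1.5-fold, 31 of 50 of 2-fold and 50 of 50 of 4-fold. A gene not called may therefore still have changed by a small amount.

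Members were described in full if called or at a mean of at least 5 CPM, and of each other pathway list up to 4 called genes with the smallest p were named. The members, lists and markers were chosen with earlier results of these data known.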

Additional observations from a re-analysis of the deposited data

Results flagged for a closer look

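In 3 of the 98 groups of 4 libraries checked, 1 library stood apart from the other 3 by more than Dixon's 95% limit, and chance gives about 1 in 20. Sema6a stood at 8.66 CPM in WT 3 and at 7.65 to 7.72 in the other WT libraries. Timd2 stood at 133 CPM in WT 1 and at 103 to 106 in the others. Trem2 stood at 12.5 CPM in CAPZ_KO 3 and at 10.4 to 10.7 in the others.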

How the results depend on the processing

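With library sizes alone, 0 ligands and 0 receptors were lower, 7 receptors and 44 other pathway genes were higher, 7665 genes were higher and 700 lower, the medians were 1.28 (ligands) and 0.88 (receptors), Capzb was -0.10, and Plxnb2 (0.49), Sema4a (0.0434), Sema3d (0.0777) and Plxna2 (0.037, not called under either scaling) changed sign. The CAPZ_KO minus WT difference of the ligand sum went from -12.6 to 10.2 RPKM and that of the receptor sum from -0.847 to 23.6, an alternative added after seeing the data. At an adjusted p under 0.01, 5 ligands and 2 receptors were higher, and 1864 genes were higher and 1439 lower. With each library left out, Capzb ranged from -0.82 to -0.66, ligands higher from 6 to 8 and lower from 2 to 3, receptors higher from 3 to 4 and lower from 2 to 3, other pathway genes higher from 24 to 27 and lower from 4 to 6, all genes higher from 2371 to 2964 and lower from 2100 to 2658, the ligand median from 0.59 to 0.78 and the receptor median from 0.15 (without WT 1) to 0.38 (without WT 4). Of the 18 called ligands and receptors, 13 kept their call at the 0.05 threshold under every alternative except library sizes alone, and Sema3d, Sema4b, Sema6c, Sema6d and Plxnb3 lost it under at least 1. The causes were not tested. The labels link libraries across groups only by a replicate number (same-number correlations 0.0089 to 0.303, 5 of 8 libraries correlating best with their own number). The highest value, 0.303, is that of WT 4 and CAPZ_KO 4, which are also the female pair. With the replicate block, 2974 genes were higher and 2411 lower, with 9 ligands higher and 2 lower, 4 receptors higher and 2 lower, and Sema3d (adjusted p = 0.0754) and Plxna4os1 (0.0713) lost their calls. The leave-out of the female pair was also chosen after seeing the data. Depth limits Sema3a, Sema3e, Sema3g, Sema4f and Sema7a, and the WT levels of Sema3b, Plxna3 and Plxnb3.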
